A study of Mus musculus with 10 samples.

Results

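The genes described here encode the inward-rectifier (Kir), two-pore-domain (K2P) and calcium- or sodium-activated potassium channels (BK, SK and Slack types, with Slo3) of the mouse. They were chosen by symbol, as the protein-coding genes whose GRCm38 annotation name starts with Kcnj, Kcnk, Kcnma, Kcnmb, Kcnn, Kcnt or Kcnu followed by a number. This gave 41 of the 54838 genes in the count tables: 15 Kir, 14 K2P, 5 BK, 4 SK or IK and 3 Slack or Slo3 genes. Of these, 30 passed the filter on low values (CPM, the counts scaled to library size, above 1 in at least 2 libraries) and were tested among 16806 genes.

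The study compared the ribosome-bound RNA of mossy cell (MC)-enriched populations at both ends of the hippocampus. All mice were Drd2-Cre;Eef1a1LSL.eGFPL10a/+ male adults of about 10 weeks on a C57BL/6 background (per the labels; the lines were crossed to C57BL/6J), and Cre under the control of Drd2, the dopamine D2 receptor gene, switched on a GFP-tagged ribosomal protein L10a. Translating ribosome affinity purification (TRAP) then pulled down the tagged ribosomes with their RNA. The 5 dorsal and 5 ventral libraries differed in the portion of hippocampus dissected, the dorsal end or the longer remaining ventral part, and carried the same transgenes. Both portions came from the same set of dissected mice, although no source used here says that a replicate number marks the same animals in both groups. Each library was a pool of 5 mice, so that the spread between libraries is a spread between pools. Drd2-Cre also drives the tag in some hippocampal GABAergic interneurons and, per the paper, in neurons of the ventral subiculum. The ventral subiculum was dissected away, but the paper states that a minor remainder is possible. Mossy cells are glutamatergic neurons of the dentate hilus that receive input from granule cells and project back along the length of the dentate gyrus.

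Potassium channels let potassium leave a cell and so draw its membrane potential toward rest. Kir channels pass current best near rest and include the G-protein-gated GIRK channels, which open when GABA-B, dopamine D2 and related receptors release the G-protein beta-gamma dimer. K2P channels carry the background or leak current, while BK, SK and Slack channels open with intracellular calcium or sodium and shape spike repolarization, afterhyperpolarization and the pause between spikes.

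The libraries held 11138676 to 20594364 counts on genes, and 3 counts corresponded to 0.146 to 0.269 CPM, which covers counting error only. Read pairs outside annotated genes were 21.8% to 33.9% of the pairs in dorsal and 11.6% to 19.3% in ventral libraries, without overlap. The summed level of 8 mossy cell markers was 576 to 658 CPM in the dorsal and 1184 to 1418 CPM in the ventral group, with 1 marker called dorsal-enriched (Cyp26b1) and 3 ventral-enriched (Calb2, Satb1, Gal). Most of that gap was Calb2, the gene of calretinin and a known marker of ventral mossy cells, at 65.2 ± 9.32 CPM against 616 ± 94.6 CPM. The summed level of 8 interneuron markers, Gad2 being the most abundant, was 3268 to 4363 CPM in the dorsal and 3951 to 5191 CPM in the ventral group, with 0 dorsal-enriched and 3 ventral-enriched (Sst, Pvalb, Lhx6). Of 5 granule cell markers, 2 were dorsal-enriched and 1 ventral-enriched, with sums of 388 to 521 and 366 to 515 CPM. None of the 5 CA pyramidal markers (118 to 194 and 126 to 199 CPM) and 6 endothelial or pericyte markers was called, and of 4 subiculum markers 1 was dorsal-enriched (Gpc3), with sums of 7.997 to 24.9 and 10.6 to 14.4 CPM. No marker of any list was at 0 in all libraries. Mossy cell markers were thus detected together with those of other cells, whose part in the channel differences was not tested.

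More channel genes were called higher in the dorsal than in the ventral libraries. A call of enrichment needed both an adjusted p below 0.05 and a log2 ratio of mean CPM plus 1 above 0.58 in size. Of the tested channel genes 20 had the higher value in dorsal and 10 in ventral libraries, and 12 of the 30 were dorsal-enriched and 3 ventral-enriched. Of the dorsal-enriched genes Kcnk6 and Kcnmb1 passed the filter on low values through dorsal libraries alone. Among all tested genes 15.7% were dorsal-enriched and 9.85% ventral-enriched (25.5% in either direction), and among protein-coding genes 11.4% and 10.3%. In 12 channel genes the dorsal and ventral libraries did not overlap, 10 with the dorsal and 2 with the ventral libraries higher. Of all tested genes 18.2% did not overlap (9.81% with dorsal and 8.36% with ventral higher), and of protein-coding genes 18.1%. The median log2 fold change (dorsal over ventral, from edgeR's quasi-likelihood fit) was 0.49 over the tested channel genes and -0.0044 over all tested genes. The voltage-gated potassium channels and their auxiliaries had a median of 0.12, with 6 dorsal-enriched and 3 ventral-enriched genes of 39 tested. The difference between these channel classes was not tested.

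The ventral-enriched genes were Kcnj9, Kcnk3 and Kcnmb2, 1 each in the Kir, K2P and BK groups, where other members were dorsal-enriched. All 3 tested SK genes and both Slack genes had higher means in dorsal libraries, with 2 calls in each of these groups. In bulk samples such as these, fewer cells of a type and less RNA per cell cannot be told apart.

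**Figure D1:**
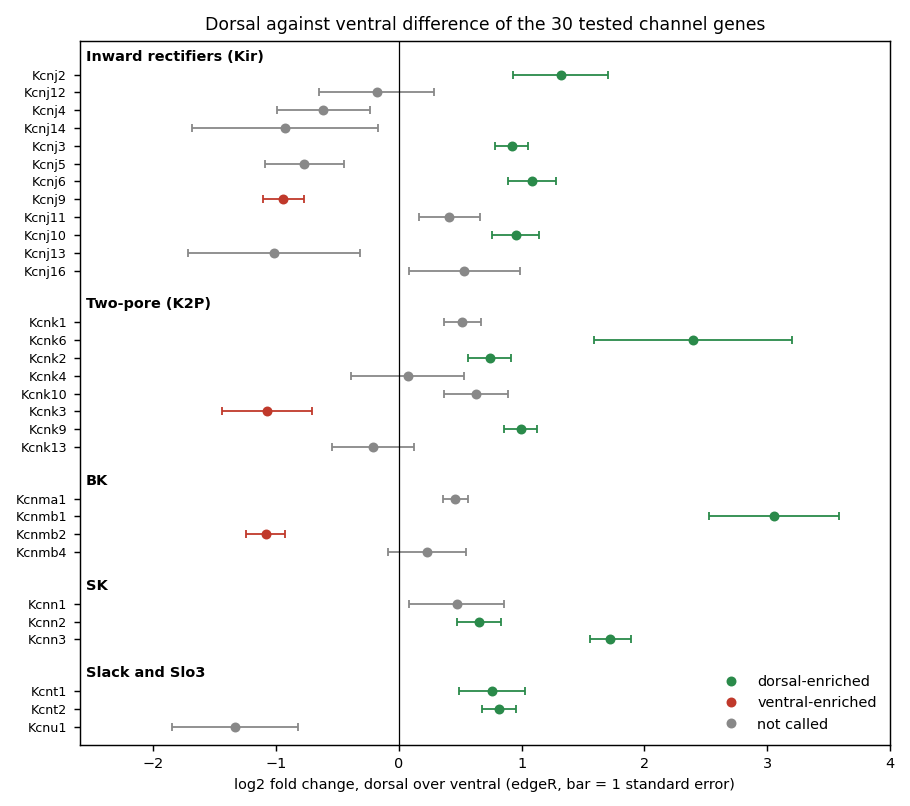
Log2 fold change of the 30 tested channel genes (dorsal over ventral, horizontal axis) with 1 standard error, grouped by channel type and coloured by call. The 12 dorsal-enriched genes lie between 0.66 (Kcnn2) and 3.06 (Kcnmb1), and the 3 ventral-enriched genes between -1.09 (Kcnmb2) and -0.94 (Kcnj9).

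Coordinates are those of GRCm38. Levels of different genes were compared per length, as CPM per kb of exonic length. Kcnj3 had the highest per-length level, at 56.5 CPM per kb in dorsal and 29.9 in ventral libraries. Kcnk1 (22.5 and 15.5 CPM per kb) and the BK pore gene Kcnma1 (21.9 and 15.9) came next and differed from each other by less than their spread within each region. Below them the order differed by region. Kcnj10 followed in dorsal libraries at 8.91 CPM per kb, while Kcnj9 (9.69) and Kcnmb2 (7.64), which did not differ beyond their spread, followed in ventral libraries. Genes at the low end, such as Kcnk6 with 0.284 CPM per kb in dorsal and 0.0537 in ventral libraries, rest on few reads.

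**Figure D2:**
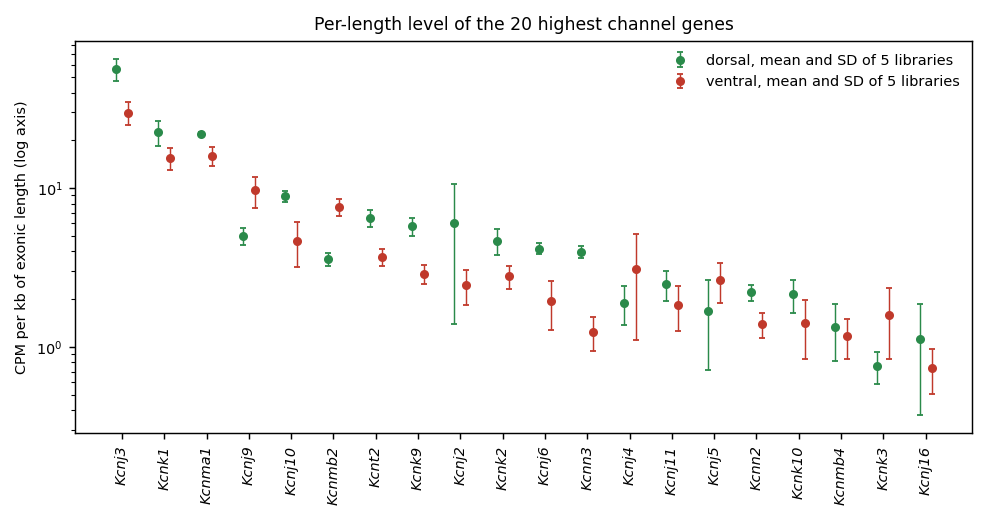
Per-length level (CPM per kb of exonic length, log axis) of the 20 channel genes with the highest level over all 10 libraries, as mean and SD of 5 dorsal or 5 ventral libraries. Kcnj3 stands highest in both regions, and Kcnj9 and Kcnmb2 are among the genes whose ventral mean lies above the dorsal mean.

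The G-protein-gated channels split in direction. GIRK channels are tetramers; Kcnj3 encodes GIRK1, which needs a partner subunit to reach the membrane, Kcnj6 encodes GIRK2, Kcnj9 encodes GIRK3 and Kcnj5 encodes GIRK4. Kcnj3 and Kcnj6 were dorsal-enriched, Kcnj9 was ventral-enriched, and Kcnj5 was not called. The 100 bases before the transcription start of the called subunits are shown because their genes moved in opposite directions; they are 5′ to 3′ on the gene's strand from RefSeq (GRCm38.p6), with capitals for a GC box (GGGCGG on either strand), of which these windows hold none. They lie at chr2:55435870-55435969 (plus strand, Kcnj3), chr16:94997697-94997796 (minus strand, Kcnj6) and chr1:172329323-172329422 (minus strand, Kcnj9).
Kcnj3: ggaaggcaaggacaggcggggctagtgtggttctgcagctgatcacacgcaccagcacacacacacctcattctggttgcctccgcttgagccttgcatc
Kcnj6: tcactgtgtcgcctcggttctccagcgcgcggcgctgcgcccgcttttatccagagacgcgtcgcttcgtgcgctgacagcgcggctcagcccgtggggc
Kcnj9: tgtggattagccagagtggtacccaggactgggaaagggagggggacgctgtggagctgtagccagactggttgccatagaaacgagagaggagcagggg

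Kcnj3 (ENSMUSG00000026824, chr2:55435970-55598145) had 316, 351, 224, 292 and 291 CPM in Dorsal 1 to 5 and 168, 139.7, 194, 133 and 144 CPM in Ventral 1 to 5. The lowest dorsal library lay above the highest ventral one. The means were 295 ± 46.7 and 156 ± 25.2 CPM (SD, n = 5 each), a log2 fold change of 0.92 ± 0.13 (SE; edgeR adjusted p = 0.000325). Of its exonic bases 31.1% are shared with the opposite-strand gene Gm26794, itself dorsal-enriched with 761 reads in dorsal and 198 in ventral libraries. Whether the counting used strand is not given in the sources used here. It is thus not known whether reads in the shared bases were counted for Kcnj3, for Gm26794 or for neither. Pairs set aside as ambiguous between genes were 5.92% to 8.66% per library.

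Kcnj6 (ENSMUSG00000043301, chr16:94748636-94997701) had 32.5, 28.7, 35.4, 30.6 and 31.7 CPM in the dorsal and 11.3, 9.07, 20.7, 13.7 and 19.5 CPM in the ventral libraries. The groups did not overlap, and the ventral libraries were the more spread. The log2 fold change was 1.08 ± 0.20 (SE; edgeR adjusted p = 0.00128). Kcnj6 shares 4.98% of its exonic bases with the opposite-strand gene Gm41505. That gene was also dorsal-enriched, with 1584 reads in dorsal and 594 in ventral libraries, and its part was not tested.

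Kcnj9 (ENSMUSG00000038026, chr1:172320501-172329318) had 19.1, 20.5, 26.1, 21.3 and 20.4 CPM in the dorsal libraries. In the ventral libraries it had 45.2, 55.0, 30.5, 38.8 and 38.1 CPM, all above the dorsal values. The means were 21.5 ± 2.70 and 41.5 ± 9.17 CPM, a log2 fold change of -0.94 ± 0.17 (SE; edgeR adjusted p = 0.00112). For Kcnj5 the log2 fold change was -0.77 ± 0.32 (edgeR adjusted p = 0.0766), at 7.83 ± 4.47 CPM in the dorsal and 12.3 ± 3.51 CPM in the ventral group. Kcnj5 passed as ventral-enriched without Dorsal 1 (log2 fold change -1.08, adjusted p = 0.0134) or without Ventral 2 (-0.90, adjusted p = 0.0365).

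Expressed as a share of the summed GIRK level per kb, Kcnj3 made up 83.6% ± 3.16 in dorsal and 67.4% ± 4.69 in ventral libraries. The Kcnj9 share was 7.63% ± 2.06 and 22.2% ± 5.72, with 6.14% to 11.2% in dorsal and 14.4% to 30.4% in ventral libraries, so that the groups did not overlap. The Kcnj6 share, 6.31% ± 1.34 against 4.41% ± 1.41, overlapped between the regions. These shares compare RNA and do not give the make-up of the assembled channels.

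**Figure D3:**
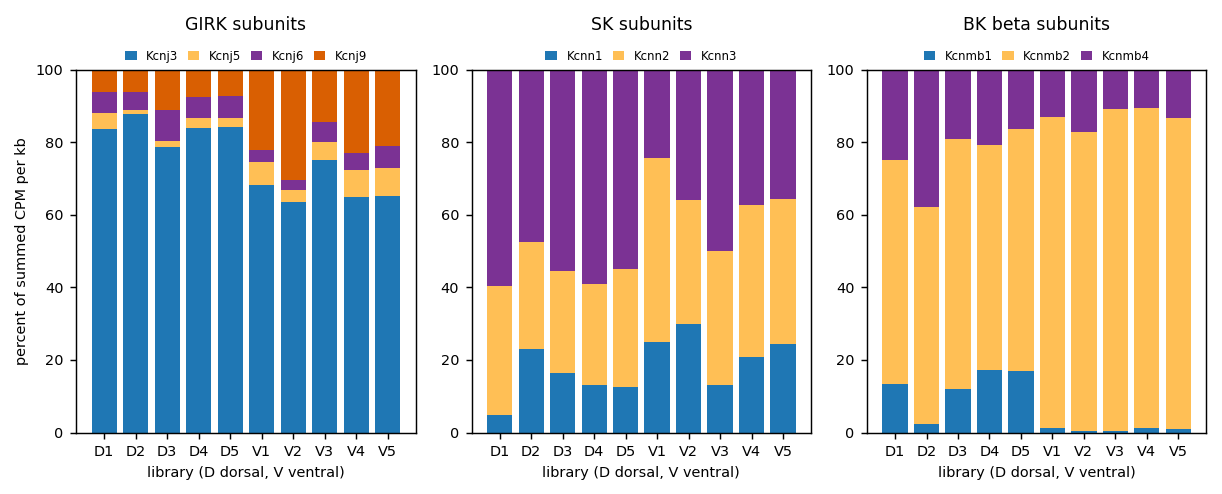
Share of each subunit gene in the summed CPM per kb of the GIRK, SK and BK beta genes (vertical axis, percent), 1 bar per library (D dorsal, V ventral). The Kcnj9 segment is taller in every ventral than in every dorsal library, Kcnn3 has a mean of 55.3% of the SK sum in dorsal and 36.6% in ventral libraries, and Kcnmb1 reaches at most 1.31% of the BK beta sum in a ventral library.

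Among the other Kir genes, Kcnj10, which encodes the astrocyte and oligodendrocyte channel Kir4.1, was dorsal-enriched. It lies head to head with Kcnj9 on chromosome 1, their annotated starts 11892 bp apart, and the neighbours differed in opposite directions. Its upstream bases are shown for that reason (chr1:172341110-172341209, plus strand, RefSeq GRCm38.p6, 5′ to 3′). A GC box read on the opposite strand is in capitals.
Kcnj10: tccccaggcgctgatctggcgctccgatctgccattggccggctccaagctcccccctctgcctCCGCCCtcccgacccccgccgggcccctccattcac

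Kcnj10 (ENSMUSG00000044708, chr1:172341210-172374085) had 44.5, 52.6, 51.7, 43.8 and 48.5 CPM in the dorsal and 15.4, 27.6, 34.2, 18.3 and 30.5 CPM in the ventral libraries. The groups did not overlap. This gave a log2 fold change of 0.95 ± 0.19 (SE; edgeR adjusted p = 0.00242). Of 6 astrocyte markers 3 were dorsal-enriched (Aqp4, Gfap, Slc1a3) and 1 ventral-enriched (Aldh1l1), with summed levels of 278 to 362 and 241 to 393 CPM. The oligodendrocyte markers Mbp (log2 fold change 0.58) and Mobp (0.85) were dorsal-enriched, while Mog (0.58), Mag (0.21) and Cnp (0.0038) were not called. The part of these glial genes in the Kcnj10 difference was not tested. Kcnj16, whose product Kir5.1 assembles with Kir4.1, was not called (log2 fold change 0.53, edgeR adjusted p = 0.384).

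Kcnj2, which encodes the strong inward rectifier Kir2.1, was the dorsal-enriched member of the Kir2 genes (ENSMUSG00000041695, chr11:111066164-111076821). It had 20.98, 77.7, 20.2, 23.8 and 21.2 CPM in the dorsal and 18.4, 10.7, 13.9, 13.6 and 10.1 CPM in the ventral libraries. Dorsal 2 stood far above the other libraries, and the remaining dorsal values lay just above the highest ventral one. The fitted log2 fold change was 1.32 ± 0.39 (SE; edgeR adjusted p = 0.0192). Without Dorsal 2 it was 0.69 (adjusted p = 0.0145), and without Ventral 5 the call was lost (adjusted p = 0.0526).

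The other Kir2 genes were not called. Kcnj4 (Kir2.3) had a log2 fold change of -0.62 (edgeR adjusted p = 0.223), and Kcnj12 (Kir2.2) and Kcnj14 (Kir2.4) stayed below 1 CPM on average in both regions. Kcnj11 encodes Kir6.2, the pore of ATP-sensitive channels that link metabolism to excitability. Its mean was 9.16 ± 1.97 CPM in the dorsal and 6.77 ± 2.11 CPM in the ventral group, without a call (log2 fold change 0.41, edgeR adjusted p = 0.208). With offsets for GC content and gene length it passed as dorsal-enriched (0.69, adjusted p = 0.0227). Its sulfonylurea receptor partners Abcc8 (0.27, adjusted p = 0.547) and Abcc9 (0.93, adjusted p = 0.12) were not called either. Kcnj13 is a Kir gene best known from epithelia. Of 5 choroid plexus and ependyma markers 3 were dorsal-enriched (Clic6, Kl, Foxj1), with sums of 130 to 998 CPM against 189 to 431 CPM. Most of these sums was Ttr, which was not called (455 ± 295 CPM in the dorsal and 308 ± 92.5 CPM in the ventral group). Kcnj13 shares 49.1% of its exonic bases with Gigyf2 on the opposite strand, and its log2 fold change of -1.02 (edgeR adjusted p = 0.269) is uncertain also for that reason.

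In the K2P group, Kcnk9, Kcnk2 and Kcnk6 were dorsal-enriched and Kcnk3 was ventral-enriched. Kcnk9 and Kcnk3 encode the acid-sensitive channels TASK3 and TASK1, which can pair with each other in a dimer. Their differences were thus of opposite sign, although the per-length level of Kcnk3 was the lower in both regions (0.760 against 5.76 CPM per kb in dorsal and 1.59 against 2.89 CPM per kb in ventral libraries).

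Kcnk9 (ENSMUSG00000036760, chr15:72501089-72546340) had 60.0, 77.8, 82.5, 65.4 and 68.4 CPM in the dorsal and 35.0, 31.3, 38.7, 30.9 and 41.7 CPM in the ventral libraries. No library of one region reached the range of the other. The log2 fold change was 0.99 ± 0.13 (SE; edgeR adjusted p = 0.000188). Kcnk3 (ENSMUSG00000049265, chr5:30588170-30625271) had 2.16, 3.51, 2.39, 3.66 and 3.38 CPM in the dorsal and 9.38, 6.16, 2.20, 8.98 and 4.82 CPM in the ventral libraries. Ventral 3 lay within the dorsal range, the other ventral libraries above it. This gave a log2 fold change of -1.07 ± 0.37 (SE; edgeR adjusted p = 0.0360), and the call was lost without any one of Dorsal 1, 3, 4 and 5 or Ventral 1 and 4 (adjusted p = 0.0599 to 0.0982). It was also lost with offsets for GC content and gene length (-0.78, adjusted p = 0.0897).

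Kcnk2 encodes TREK1, a leak channel opened by membrane stretch, lipids and warmth (ENSMUSG00000037624, chr1:189207930-189402273). It had 20.9, 30.7, 21.9, 19.999 and 21.7 CPM in the dorsal and 17.7, 13.8, 12.5, 13.0 and 11.99 CPM in the ventral libraries. Every dorsal library was above every ventral one, Dorsal 2 being the highest. The fitted log2 fold change was 0.74 ± 0.18 (SE; edgeR adjusted p = 0.00691). Its relatives were not called: Kcnk10 (TREK2) had a log2 fold change of 0.63 (edgeR adjusted p = 0.0771) and Kcnk4 (TRAAK) one of 0.07 (adjusted p = 0.922). Kcnk10 passed as dorsal-enriched without Dorsal 2 (0.78, adjusted p = 0.0262) or without Ventral 3 (0.83, adjusted p = 0.0209).

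The TWIK genes were the highest and the lowest of the tested K2P genes per length. Kcnk1 (TWIK1, ENSMUSG00000033998, chr8:125995170-126030685) had 66.1, 48.3, 47.8, 46.6 and 42.1 CPM in the dorsal and 43.1, 32.9, 27.9, 35.5 and 33.6 CPM in the ventral libraries. Ventral 1 exceeded Dorsal 5, so the groups overlapped by that pair. The log2 fold change of 0.52 ± 0.15 passed on its adjusted p (0.0190, edgeR) and not on its size, and it passed both without Dorsal 5 (0.58) or without Ventral 1 (0.61).

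Kcnk6 (TWIK2, ENSMUSG00000046410, chr7:29221926-29232515) had 27, 24, 4, 15 and 8 reads in the dorsal and 4, 8, 0, 0 and 4 reads in the ventral libraries. That is 2.54, 1.56, 0.273, 0.901 and 0.629 CPM against 0.222, 0.704, 0, 0 and 0.189 CPM, and the groups overlapped. The fitted log2 fold change of 2.40 ± 0.81 (SE; edgeR adjusted p = 0.0274) depends on these few reads. Its call was lost without Ventral 1, 4 or 5 (adjusted p = 0.056 to 0.0749). Without Dorsal 1 or Dorsal 2, the libraries where it was highest, it fell below the filter on low values and was not tested. Kcnk13, the THIK1 gene, known for its expression in microglia, was not called (log2 fold change -0.21, edgeR adjusted p = 0.655). Of 5 microglia markers 1 was dorsal-enriched, with sums of 19.5 to 23.6 CPM in the dorsal and 12.3 to 24.8 CPM in the ventral group.

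The accessory subunits of BK channels differed in opposite directions. The pore is encoded by Kcnma1, and the beta subunits of Kcnmb1, Kcnmb2 and Kcnmb4 tune its calcium sensitivity and gating; the beta2 subunit of Kcnmb2 closes the channel by a ball-like inactivation domain, and beta1 is best known from smooth muscle. Kcnmb1 was dorsal-enriched, Kcnmb2 ventral-enriched, and Kcnmb4, a neuronal beta subunit, was not called. The bases before the RefSeq start of the called beta subunits are shown to set the opposed genes side by side. They lie at chr11:33962913-33963012 (Kcnmb1) and chr3:31902603-31902702 (Kcnmb2), both on the plus strand (RefSeq GRCm38.p6, 5′ to 3′). The Kcnmb2 window lies within the annotated gene, whose start at 31902507 comes before the RefSeq start. No GC box lies in either window.
Kcnmb1: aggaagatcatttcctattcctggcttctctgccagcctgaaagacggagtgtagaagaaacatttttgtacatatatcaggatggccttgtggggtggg
Kcnmb2: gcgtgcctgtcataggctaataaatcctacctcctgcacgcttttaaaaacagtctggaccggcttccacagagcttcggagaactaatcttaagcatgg

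Kcnmb2 (ENSMUSG00000037610, chr3:31902507-32200180) had 10.2, 11.0, 12.8, 10.4 and 11.5 CPM in the dorsal and 27.0, 24.6, 26.3, 20.7 and 20.96 CPM in the ventral libraries. The ranges were far apart, and both were narrow. The means were 11.2 ± 1.05 and 23.9 ± 2.95 CPM, a log2 fold change of -1.09 ± 0.16 (SE; edgeR adjusted p = 0.000333). Its share of the summed BK beta level per kb was 63.9% ± 3.75 in dorsal and 86.1% ± 2.56 in ventral libraries.

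Kcnmb1 (ENSMUSG00000020155, chr11:33963013-33973641) was a low gene with 31, 9, 44, 64 and 50 reads in the dorsal and 10, 2, 2, 6 and 6 reads in the ventral libraries. In CPM these were 2.92, 0.585, 2.999, 3.84 and 3.93 against 0.555, 0.176, 0.169, 0.380 and 0.283. Dorsal 2 lay only just above Ventral 1, and the other dorsal libraries were well clear of the ventral range. The log2 fold change was 3.06 ± 0.53 (SE; edgeR adjusted p = 0.000418). Every ventral library was below 1 CPM, so Kcnmb1 passed the filter on low values through dorsal libraries alone. The endothelial and pericyte markers had sums of 94.5 to 159 CPM against 107 to 141 CPM, and their part was not tested. Most of these sums was Rgs5 (104 ± 17.1 CPM in the dorsal and 99.7 ± 4.91 CPM in the ventral group), and the list was not drawn up for smooth muscle.

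The BK pore gene Kcnma1 (ENSMUSG00000063142, chr14:23289431-24014491) had 380.5, 353, 376, 374 and 372 CPM in the dorsal and 288, 224, 319.7, 251 and 265 CPM in the ventral libraries. The groups did not overlap and the dorsal libraries were close together. Its log2 fold change of 0.46 ± 0.10 (SE; edgeR adjusted p = 0.00372) passed on p and was below the size required for a call. Kcnmb4 averaged 4.43 ± 1.73 CPM in the dorsal and 3.87 ± 1.08 CPM in the ventral group (log2 fold change 0.23, edgeR adjusted p = 0.601), and 31.5% of its exonic bases are shared with antisense genes.

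The gamma subunits of BK channels are leucine-rich repeat proteins that shift BK opening toward more negative voltages. Lrrc55 was dorsal-enriched at 26.8 ± 4.55 CPM against 15.9 ± 4.76 CPM (log2 fold change 0.74 ± 0.20, edgeR adjusted p = 0.0135). Lrrc26, Lrrc38 and Lrrc52 were below the filter on low values.

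The SK genes held the dorsal-enriched channel gene with the smallest adjusted p. SK channels open with calcium bound to calmodulin and carry the medium afterhyperpolarization; Kcnn1, Kcnn2 and Kcnn3 encode SK1 to SK3, and Kcnn4 encodes the intermediate-conductance channel. The upstream bases of Kcnn3 are shown as those of the gene with that smallest p (chr3:89520064-89520163, plus strand, RefSeq GRCm38.p6, 5′ to 3′), and no GC box lies in them.
Kcnn3: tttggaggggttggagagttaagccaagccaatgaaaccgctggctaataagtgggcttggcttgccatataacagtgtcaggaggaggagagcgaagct

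Kcnn3 (ENSMUSG00000000794, chr3:89520164-89675132) had 39.5, 39.6, 48.1, 39.2 and 41.2 CPM in the dorsal and 8.93, 16.1, 16.2, 12.1 and 11.5 CPM in the ventral libraries. The dorsal libraries lay far above the ventral range. The means were 41.5 ± 3.76 and 13.0 ± 3.14 CPM, a log2 fold change of 1.72 ± 0.17 (SE; edgeR adjusted p = 1.99e-05).

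Kcnn2 (ENSMUSG00000054477) had 16.8, 17.7, 17.4, 13.2 and 17.4 CPM in the dorsal and 13.3, 11.0, 8.61, 9.74 and 9.25 CPM in the ventral libraries. Dorsal 4 and Ventral 1 met at about the same value, and the other libraries were apart. This gave a log2 fold change of 0.66 ± 0.18 (SE; edgeR adjusted p = 0.0135), and the call was lost without Ventral 3, where it was 0.60 (adjusted p = 0.0237) and the log2 ratio of mean CPM plus 1 was below the 0.58 required. Kcnn1 was not called (log2 fold change 0.47, edgeR adjusted p = 0.366). Kcnn3 made up 55.3% ± 4.89 of the summed SK level per kb in dorsal and 36.6% ± 9.06 in ventral libraries, while the Kcnn2 share was 30.7% ± 3.26 and 40.8% ± 6.30. Both shares overlapped between the regions.

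Both sodium-activated channel genes were dorsal-enriched. Kcnt2, which encodes Slick (ENSMUSG00000052726, chr1:140246158-140612067), had 46.9, 35.1, 47.8, 47.1 and 47.1 CPM in the dorsal and 27.0, 21.2, 29.4, 25.6 and 23.8 CPM in the ventral libraries. Apart from Dorsal 2 the dorsal libraries were nearly equal, and all were above the ventral range. The fitted log2 fold change was 0.82 ± 0.14 (SE; edgeR adjusted p = 0.000852). With offsets for GC content and gene length it was 0.26 (adjusted p = 0.154) and no longer called.

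Kcnt1, which encodes Slack (ENSMUSG00000058740, chr2:25863734-25918273), had 4.80, 12.4, 14.1, 8.77 and 10.3 CPM in the dorsal and 4.66, 6.34, 5.57, 7.02 and 6.75 CPM in the ventral libraries. Dorsal 1 lay within the ventral range and the other dorsal libraries above it. The log2 fold change was 0.76 ± 0.27 (SE; edgeR adjusted p = 0.0401), and the call was lost without any one library other than Dorsal 1 (adjusted p = 0.0508 to 0.103). Kcnt2 made up 85.9% ± 5.23 of the summed Slack level per kb in dorsal and 85.1% ± 3.08 in ventral libraries. The sperm channel gene Kcnu1 (Slo3) averaged 0.662 ± 0.324 CPM in the dorsal and 1.80 ± 1.16 CPM in the ventral group and was not called (log2 fold change -1.34, edgeR adjusted p = 0.0539). It passed as ventral-enriched without Dorsal 2, Ventral 3 or Ventral 5 (adjusted p = 0.0357 to 0.0434), and with offsets for GC content and gene length (-1.39, adjusted p = 0.0462).

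**Figure D4:**
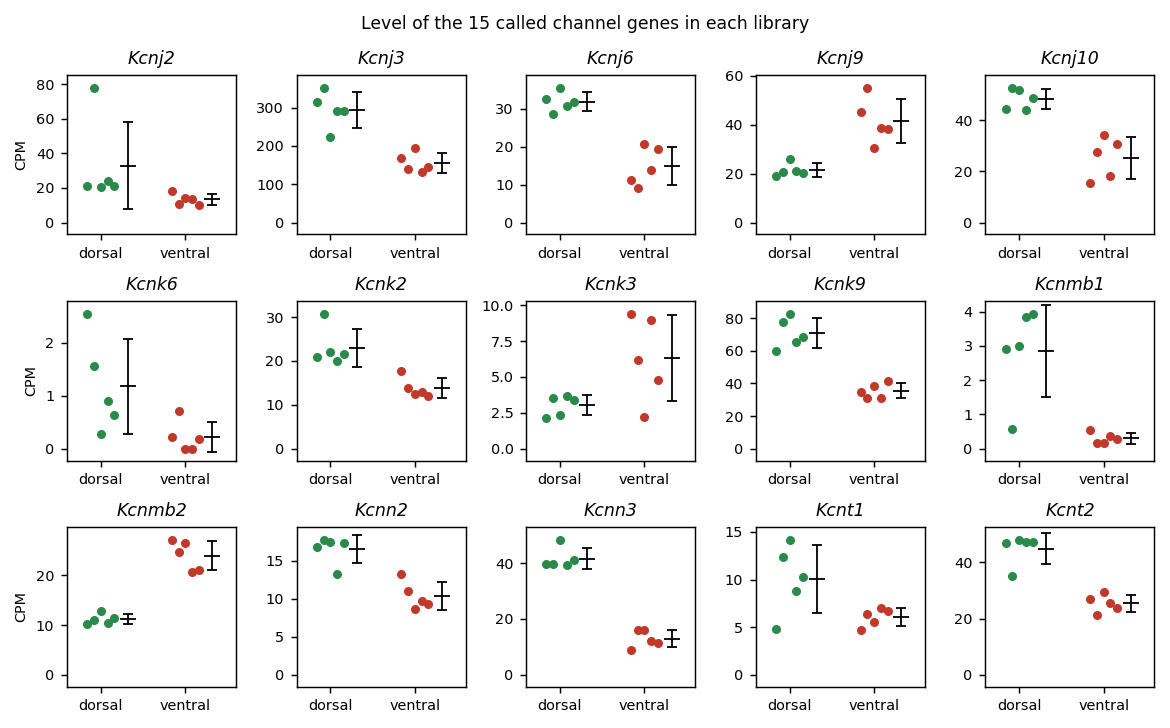
Level (CPM, vertical axis) of the 15 called channel genes in each of the 5 dorsal (green) and 5 ventral (red) libraries, with mean and SD in black beside the points. Kcnj9, Kcnk3 and Kcnmb2 are the genes whose ventral mean is the higher, and Dorsal 2 stands at 77.7 CPM for Kcnj2.

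The 11 channel genes below the filter were Kcnj1, Kcnj8, Kcnj15, Kcnk5, Kcnk7, Kcnk12, Kcnk15, Kcnk16, Kcnk18, Kcnmb3 and Kcnn4. Kcnj1, the renal channel ROMK, had 0 reads in every library, which allows up to 0.146 to 0.269 CPM per library. Kcnj8, the Kir6.1 gene of pericytes and vascular muscle, had at most 1 read in a library. Kcnk5 had 6, 0, 0, 8 and 3 reads in the dorsal and 0 in every ventral library, and Kcnk18 had 0, 7, 1, 1 and 1 reads against 0. These counts are too small for a comparison at this depth. Kcnk12 was the highest of the untested genes, with 2 to 9 reads in dorsal and 0 to 16 reads in ventral libraries.

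Receptors, G proteins, regulators and scaffolds that act on these channels were counted in the same fit. Of 33 such partner genes 30 were tested, with a median log2 fold change of -0.029. Of these 1 was dorsal-enriched (Lrrc55, 3.33%) and 1 ventral-enriched (Csnk2b, 3.33%), where all tested genes gave 15.7% and 9.85%. Csnk2b encodes the regulatory subunit of casein kinase 2, which acts on SK channels (log2 fold change -0.80, edgeR adjusted p = 0.0005). The GABA-B receptor subunit genes Gabbr1 (0.48, edgeR adjusted p = 0.0014) and Gabbr2 (0.47, adjusted p = 0.0061) passed on p and not on size with the dorsal libraries higher, as did Rgs7bp (0.33, adjusted p = 0.0347). The GIRK regulator genes Gnb5 (-0.51, edgeR adjusted p = 0.0032) and Rgs6 (-0.54, adjusted p = 0.0143) passed on p and not on size with the ventral libraries higher. These genes are named after their values were seen.

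Features that the symbol rule did not use are given as a description, without a test. Dorsal-enriched members had a median GC content of 48.7%, a median exonic length of 6.17 kb and a median genomic span of 105 kb. The 3 ventral-enriched members had medians of 58.6%, 3.98 kb and 37.1 kb, and the 15 tested members without a call 53.4%, 3.68 kb and 35.5 kb. The ranges overlapped, with GC contents of 39.3% to 56.5% in dorsal-enriched and 41.2% to 58.8% in ventral-enriched members and spans of 10.6 to 417 kb and 8.82 to 298 kb. Kcnmb2 has both that lowest GC content and that longest span of the ventral-enriched members. RefSeq promoters were matched for 33 of the 41 genes. Their starts are those of RefSeq and can differ from the annotated gene bounds given above. In the 250 bases before the start, a GC box (GGGCGG or CCGCCC) was found in 13 of the 33 genes and in 32.7% of all 32841 promoters, a TATA box (TATAAA or TTTATA) in 2 (Kcnj9 and Kcnj13) and in 12.4%, and the cAMP response element TGACGTCA in 0 and in 1.55%. The letters of the searched motifs do not contain one another, and a match or its absence is a description of this window only.

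The percentage of pairs outside annotated genes moved with region, as given above, and was entered as a covariate. The calls then came to 3 dorsal-enriched (Kcnj3, Kcnmb1, Kcnn3) and 1 ventral-enriched (Kcnmb2), where all tested genes gave 4.96% and 2.02%. Log2 fold changes were 0.99 for Kcnj3 (edgeR adjusted p = 0.0337), 3.69 for Kcnmb1 (0.0149), 1.32 for Kcnn3 (0.0154) and -1.34 for Kcnmb2 (0.0257). For Kcnj9 the value stayed at -0.90 with a larger SE of 0.36 (edgeR adjusted p = 0.142). For Kcnj10 it was 0.50 ± 0.35 (adjusted p = 0.413) and for Kcnk9 0.62 ± 0.24 (adjusted p = 0.128). As this percentage did not overlap between the regions, its part and that of region cannot be told apart, also for the genes that kept their call.

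**Figure D5:**
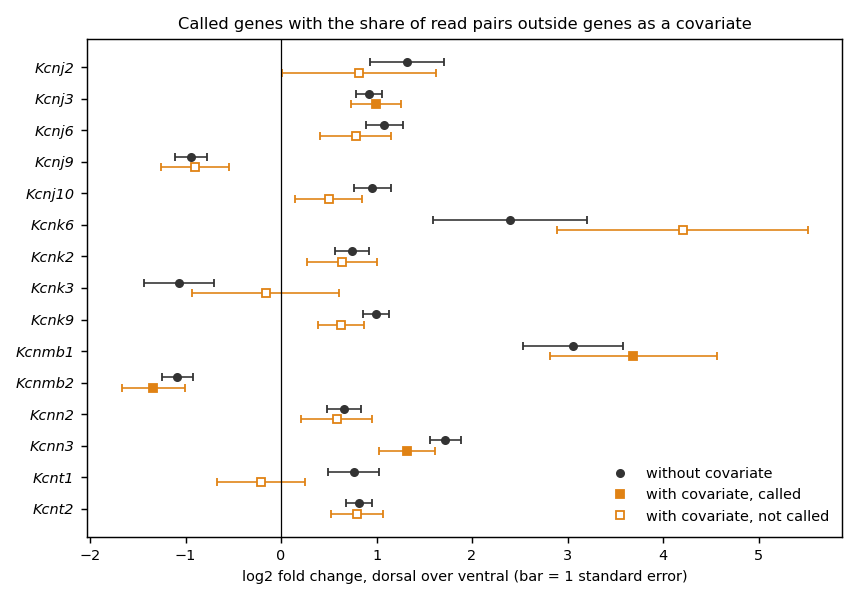
Log2 fold change (dorsal over ventral, horizontal axis) with 1 standard error of the 15 called channel genes, without (circles) and with (squares) a covariate for the pairs outside genes, as percent of all pairs. Filled squares mark the 4 genes still called, Kcnj3, Kcnmb1, Kcnmb2 and Kcnn3, and Kcnt1 is the gene that changed sign, to -0.21.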

How the data were processed

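RNA bound to tagged ribosomes was sequenced as paired ends from 5 dorsal and 5 ventral libraries. The authors aligned the reads to GRCm38 with STAR 2.5.2b and counted them per gene with HTSeq 0.7.2, and deposited whole-number counts per gene without normalization. Strand setting and annotation release are not given in the sources used here. Names, coordinates, GC content and exonic length came from GENCODE M21, which matched 54809 of 54838 identifiers.

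Genes that exceeded 1 CPM in 2 or more libraries were fitted with edgeR 4.0.16 in R 4.3.3, with TMM scaling and the quasi-likelihood test, and p was adjusted by Benjamini-Hochberg over 16806 genes. Calls needed an adjusted p below 0.05 and a log2 ratio of mean CPM plus 1 above 0.58. CPM were computed on TMM-scaled library sizes. The standard error is the log2 fold change over the square root of F. The fit was tested on simulated data with known changes. No 2 libraries were duplicates, since the chi-square of any pair within a group, divided by its degrees of freedom, was at least 4.36, where sampling noise alone gives about 1.

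Every channel gene is accounted for by name, and values per library are given for the called genes and for Kcnk1 and Kcnma1, chosen for their per-length level. The channel genes, partner and marker lists were chosen with earlier results of these data known. The alternatives, among them DESeq2 1.42.0 and mgcv 1.9.3 offsets for GC content and length, are described in the closing section. The value of 1 marker gene and the sum that holds it are not reported here.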

Additional observations from a re-analysis of the deposited data

Results flagged for a closer look

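In 6 of 34 groups of 5 libraries examined, 1 library stood apart from the others by more than Dixon's critical value of 0.71 for the gap over the range, where chance gives about 1 in 20 groups. All 6 were dorsal groups. Dorsal 2 was the highest for Kcnj2 at 77.7 CPM (the other dorsal libraries 20.2 to 23.8 CPM) and for Kcnk2 at 30.7 CPM (19.999 to 21.9 CPM), and the lowest for Kcnt2 at 35.1 CPM (46.9 to 47.8 CPM). Dorsal 1 was the highest for Kcnk1 at 66.1 CPM (42.1 to 48.3 CPM), Dorsal 3 the highest for Kcnn3 at 48.1 CPM (39.2 to 41.2 CPM), and Dorsal 4 the lowest for Kcnn2 at 13.2 CPM (16.8 to 17.7 CPM).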

How the results depend on the processing

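Over 26 alternatives, Kcnj3, Kcnmb2 and Kcnn3 kept their call in every one and Kcnmb1 in the 25 that tested it. Kcnmb1 was not tested where CPM above 1 was required in at least 5 libraries, since Dorsal 2 and all ventral libraries fell short. Kcnj6, Kcnj9, Kcnj10, Kcnk2 and Kcnk9 lost their call only with the percentage of pairs outside genes as a covariate. No call could be lost in the alternative without a fold threshold, which reused the main fit. Kcnk6 lost its call in 7 of the 23 alternatives that tested it, Kcnk3 in 11 of 26 and Kcnt1 in 14 of 26. Kcnj2 lost its call in 4 of 26, and Kcnn2 and Kcnt2 in 3 of 26 each. For Kcnj2 these included the replicate block with GC and length offsets (0.91, edgeR adjusted p = 0.0618). With that covariate 3 channel genes were dorsal-enriched and 1 ventral-enriched, and 0 and 0 partner genes. Leaving out 1 library at a time gave 9 to 12 dorsal-enriched and 2 to 4 ventral-enriched channel genes, and 1 to 2 dorsal-enriched partner genes (2 without Dorsal 1). At an adjusted p below 0.01, 8 channel genes were dorsal-enriched and 2 ventral-enriched. The counts were 10 and 3 with CPM above 1 in at least 5 libraries, and 10 and 2 with edgeR 3 dispersions. Partner genes called dorsal-enriched were 4 without a fold threshold, 0 at an adjusted p below 0.01, 4 with GC and length offsets and 4 with these and the replicate block, and those called ventral-enriched were 2 without a filter and 3 without a fold threshold. Whether a replicate number marks the same mice in both groups is not stated. The deviations of same-numbered libraries correlated at -0.032 to 0.069 (mean 0.016, against -0.0021 for different numbers). Values this small do not show pairing and cannot exclude it, since differences between pools may be small against other noise. The replicate block gave 11 dorsal-enriched and 4 ventral-enriched channel genes, Kcnt1 losing its call (adjusted p = 0.0535) and Kcnu1 passing as ventral-enriched (adjusted p = 0.0241), or 13 and 3 with the GC and length offsets. Signs turned for Kcnt1 with the covariate (-0.21) and otherwise only for genes that had no call. These were Kcnj4 (0.22), Kcnj5 (0.50), Kcnj13 (1.41), Kcnk4 (-0.061) and Kcnn1 (-0.35) with the covariate, Kcnj12 (0.061) and Kcnk13 (0.015) with GC and length offsets, and Kcnj12 (0.040) and Kcnk13 (0.038) with those and the block. Kcnk4 was -0.014 with the block and ranged from -0.23 to 0.43, and Kcnmb4 from -0.055 to 0.35, with 1 library left out. The cause was not tested. The edgeR 3 dispersions were an alternative chosen after seeing the data. Genes near 1 CPM or below rest on few reads, and this depth limits what can be called there.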
